A study of Drosophila melanogaster with 3 samples.

Results

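Hr3, Hr4, Hr38, Hr39 and Eip78C are 5 genes of the nuclear receptor family that act in or beside the ecdysone cascade, and they were chosen by name from the 13945 protein-coding genes of the annotation. Their binding by Blimp-1 was described in the gene bodies plus 10 kb on each side, with every annotated transcription start site (TSS), and 34 of the 4990 reproducible binding sites had their summit (the position of highest signal) in these windows. The data are chromatin immunoprecipitation sequencing (ChIP-seq) from 3 biological replicates of whole Drosophila melanogaster prepupae, males and females pooled, of unknown age. All animals came from a transgenic line with green fluorescent protein (GFP) at the C terminus of Blimp-1, and sonicated chromatin was precipitated with an antibody against GFP. Neither the promoter that drives the fusion nor the number of animals per replicate is stated in the labels. The 3 replicates form 1 group, there is no treated or untreated group, and the control experiment that the labels name as possible was not analysed here. Whole animals were used, so binding in more cells and stronger binding per cell cannot be told apart, and no tissue can be named for any site.

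Ecdysone is the steroid hormone that times insect metamorphosis. Its receptor switches on early genes, which encode transcription factors, and these together with later-acting nuclear receptors set the order in which further genes turn on and off between the larval and the prepupal hormone pulses. The repressor Blimp-1, a zinc finger protein, is itself made in response to ecdysone and is known for holding back the nuclear receptor gene ftz-f1 in prepupae. Eip78C encodes a receptor related to Eip75B. Hr3 activates ftz-f1, Hr4 is needed for the timing of growth and maturation, Hr39 is a relative of ftz-f1, and Hr38 is the fly member of the NR4A receptors and can pair with usp, the partner of the ecdysone receptor.

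The sequences below carry the results on motifs. The first set shows the matches to the PRDI-BF1 consensus, the binding sequence known for the human homologue of Blimp-1, at the printed sites, and to its core GTGAAAG, with the match in capitals. Each runs 5′ to 3′ on the strand named, in the RefSeq copy of genome release 6 (dm6), and sites are numbered along the direction of transcription of their gene.
Hr4 site 11, chrX:1990172-1990200, minus strand: gctctgctaAAGTGAAAGTTtattgttgt
Hr4 site 9, chrX:1970571-1970599, plus strand: tgttagaagCAACGAAAGCGacaaggagc
Hr4 site 14, chrX:2013115-2013143, minus strand: gcgaaaaggAAGTGAAAGAGaatggcaat
Eip78C site 2, chr3L:21235391-21235419, minus strand: acgaacggcAACTGAAAGTGaaaggcgcc
Hr39 site 1, chr2L:21250595-21250623, minus strand: attgactctCAGCTAAAGTTgcgtgggag
Hr4 site 1, chrX:1940230-1940258, plus strand: aatcatgagaaGTGAAAGgcaagcacata
Hr4 site 8, chrX:1966573-1966601, plus strand: acaaaaagtagGTGAAAGgtcttcaacct
The match at Hr4 site 11 has 0 mismatches to the consensus and is centred 6 bp from the summit, and the matches at Hr4 sites 9 and 14, Eip78C site 2 and Hr39 site 1 have 1 mismatch each and are centred 3, 71, 73 and 82 bp from their summits. The second set shows the centres of the strongest sites of Hr38, Hr4 and Eip78C and of the promoter site of Hr38, with GAGAG in capitals at the Hr38 sites and GAAAG in capitals at the others, on either strand (CTCTC and CTTTC are the same letters read on the other strand).
Hr38 site 1, chr2L:20716139-20716289, minus strand: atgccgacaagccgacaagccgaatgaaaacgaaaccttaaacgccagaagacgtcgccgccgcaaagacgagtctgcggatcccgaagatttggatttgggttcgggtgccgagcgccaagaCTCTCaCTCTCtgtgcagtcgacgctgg
Hr38 site 2, chr2L:20714616-20714766, minus strand: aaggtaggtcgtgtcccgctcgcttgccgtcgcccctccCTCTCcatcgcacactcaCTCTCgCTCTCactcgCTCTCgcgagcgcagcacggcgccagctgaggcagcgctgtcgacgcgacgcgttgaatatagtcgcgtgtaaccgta
Hr4 site 10, chrX:1972265-1972415, plus strand: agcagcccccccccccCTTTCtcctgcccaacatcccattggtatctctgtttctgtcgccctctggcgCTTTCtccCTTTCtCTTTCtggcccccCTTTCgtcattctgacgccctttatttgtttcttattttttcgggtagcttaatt
Eip78C site 4, chr3L:21253819-21253919, plus strand: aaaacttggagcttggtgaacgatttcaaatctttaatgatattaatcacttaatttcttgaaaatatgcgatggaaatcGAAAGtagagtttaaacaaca
The Hr4 window holds 5 GAAAG, the Eip78C window 1, the distal Hr38 window 2 GAGAG and the Hr38 promoter window 4 GAGAG. None of these 4 windows holds GTGAAAG.

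A reproducible site is a merged peak of the list that the authors thresholded on the irreproducible discovery rate (IDR), a measure of how well peak ranks repeat between replicates. The strength of a site in a replicate is given as relative signal, which is the deposited signal of the strongest peak overlapping it in the list of that replicate, divided by the median of the same quantity over all 4990 sites, so that 1 is the median site. Those medians were 108, 183 and 95.0 in replicates 1, 2 and 3. A replicate supported a site where the site overlapped one of its 4990 strongest peaks. Each value has counting error of unknown size, because the lists carry no read counts and the depth of the libraries is unknown. With 3 replicates an exact two-sided sign-flip permutation test between 2 sites cannot go below p = 0.25, so differences are given for every replicate and set against the standard deviation (SD), with no test.

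All 5 genes had at least 1 reproducible site, against 59.7% of all protein-coding genes (8319 of 13945). Longer genes have larger windows, and 70.8% of the 904 protein-coding genes of at least 22426 bp, the length of the shortest of the 5, had a site in the same kind of window. The number of sites ran from 1 at Hr39 to 14 at Hr4. Hr3 had 9, Eip78C 6 and Hr38 4. The median over all protein-coding genes was 1 site, and over the 904 long genes 2 sites. At least 3 sites were found at 4 of the 5 genes, against 16.4% of all protein-coding genes, most of which are shorter and have smaller windows. By number of sites Hr4 stood at rank 12 of all protein-coding genes, Hr3 at 47, Eip78C at 151, Hr38 at 520 and Hr39 at 4550. Per 10 kb of window there were 1.69 sites at Hr3, 1.63 at Hr4, 1.00 at Eip78C, 0.782 at Hr38 and 0.236 at Hr39, against a median of 0.260 over the long genes and 0.373 over the major chromosome arms. Hr39 was thus the only one of the 5 below the density of the arms.

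**Figure D1:**
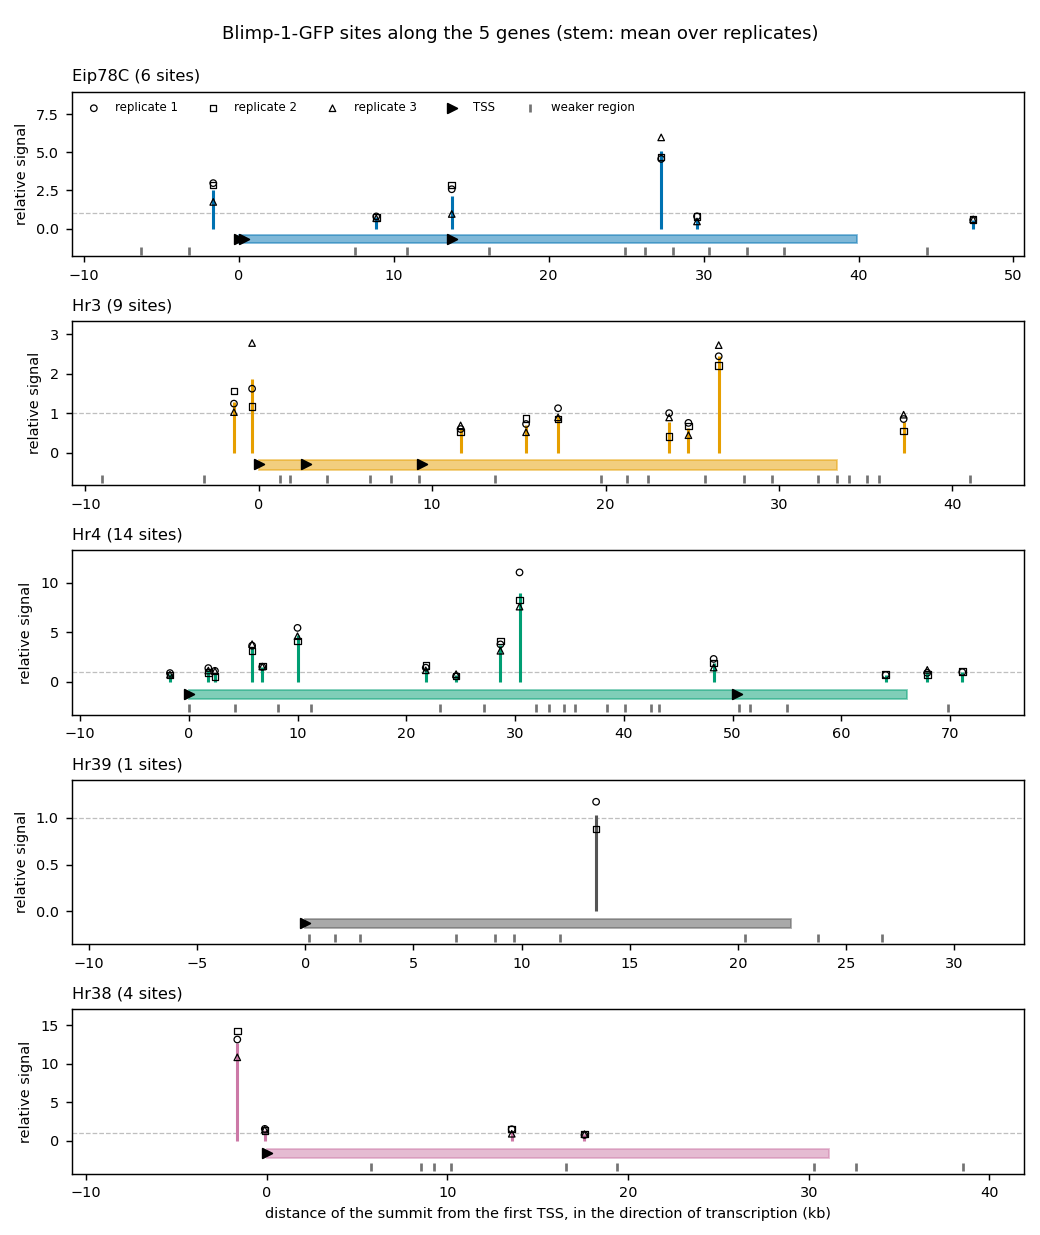
Relative signal (vertical axis, no unit, 1 is the median site) of every reproducible site against the distance of its summit from the most upstream TSS of the gene in kb, read in the direction of transcription. Stems are means, open symbols are the 3 replicates, bars are gene bodies, arrowheads are TSSs and grey ticks are weaker regions. Hr38 has 1 tall site just upstream of its TSS, whereas the tallest sites of Hr4 and Eip78C stand inside the gene.

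Eip78C, on chromosome 3L from 21226609 to 21266503 on the plus strand (FBgn0004865), had 6 sites, of which 3 lay in introns, 1 in a 5′ untranslated region (UTR), 1 upstream and 1 downstream. Its strongest site, site 4, lay from 21253673 to 21254126 in an intron, 13522 bp downstream of the TSS of transcript Eip78C-RB and 4151 bp upstream of CG43218, the nearest protein-coding gene by TSS. Its relative signal was 4.57, 4.69 and 5.98 in replicates 1, 2 and 3, a mean of 5.08 ± 0.78 (SD, n = 3), and it ranked 176 of 4990 sites by the pooled signal. The 3 values stayed close together, and each was higher than any value of the other Eip78C sites.

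A second Eip78C site, site 1 from 21224730 to 21225346, lay 1654 bp upstream of the most upstream TSS and had a relative signal of 2.98, 2.85 and 1.75 (2.53 ± 0.67, SD, n = 3). Site 3, from 21240253 to 21240481, had its summit 4 bp downstream of the TSS of Eip78C-RB, an alternative start 13738 bp into the gene. Its relative signal was 2.58 and 2.86 in replicates 1 and 2 and 0.963 in replicate 3 (2.14 ± 1.03, SD, n = 3). At this alternative promoter replicate 3 was therefore below its own median site while the other replicates were well above theirs. The TSSs of Eip78C-RD, -RE and -RA at the upstream end had no reproducible site within 1000 bp. Among the relaxed lists, replicate 3 alone had a peak near any of them, with a relative signal of 0.198. Site 2, in an intron from 21235243 to 21235712, carries GTGAAAG. In its line above the capitals mark the consensus match, and GTGAAAG runs from the last capitals into the lower case letters. Site 2 had 0.802, 0.726 and 0.685, below the median site in each replicate (0.74 ± 0.06, SD, n = 3). Sites 5 and 6 averaged 0.70 ± 0.19 and 0.59 ± 0.02 (SD, n = 3), and site 6 lay in an intron of the neighbour AcCoAS.

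Hr3, on chromosome 2R from 10203995 to 10237348 on the minus strand (FBgn0000448), had 9 sites, of which 6 lay in introns, 2 upstream and 1 downstream. The median of their mean relative signals was 0.79, the lowest among the 4 genes with several sites. The strongest, site 8 from 10210652 to 10210968, reached 2.44, 2.21 and 2.72 times the median site in replicates 1, 2 and 3 (2.45 ± 0.26, SD, n = 3) and ranked 632. It lay 17139 bp downstream of the nearest Hr3 TSS, in an intron that at this position is shared with CG12912, CG46321 and the noncoding gene lncRNA:CR46322. The nearest protein-coding gene by TSS was CG34221, 11107 bp away. All 6 intronic sites of Hr3 also lay in introns of CG12912 and CG46321, so the sites cannot be assigned to Hr3 by position alone.

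The only Hr3 site within 1000 bp of one of its TSSs, site 2 from 10237598 to 10238012, lay 386 bp upstream of the start of Hr3-RD and 254 bp upstream of Hdc, the histidine decarboxylase gene. It had a relative signal of 1.62, 1.17 and 2.77 (1.85 ± 0.83, SD, n = 3), so every replicate was above its median site but they spread widely. Site 1, from 10238542 to 10239215 and 1046 bp farther upstream, lay in an intron of Hdc and had 1.24, 1.55 and 1.02 (1.27 ± 0.27, SD, n = 3). The other starts had no reproducible site. Within 1000 bp of the start of Hr3-RC and -RI, the strongest relaxed peaks had relative signals of 0.362, 0.143 and 0.259 in replicates 1, 2 and 3. Near the start of Hr3-RA, -RF and -RH they had 0.431 and 0.779 in replicates 1 and 2, and replicate 3 had none. Site 4, from 10221696 to 10222165, was the only Hr3 site with GTGAAAG and with a consensus match of at most 1 mismatch, and it had 0.723, 0.864 and 0.515 (0.70 ± 0.18, SD, n = 3). Sites 3, 5, 6, 7 and 9 had means from 0.60 to 0.95. Site 9 lay 441 bp upstream of CG34221.

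Hr4, on chromosome X from 1941940 to 2007956 on the plus strand (FBgn0264562), had 14 sites, the most of the 5 genes. Of these 10 lay in introns, 1 upstream, 2 downstream and 1 in a 3′ UTR, and 10 of the 14 stood between its 2 annotated start positions, which are 50360 bp apart. The strongest, site 10 from 1972065 to 1972763, lay 30400 bp downstream of the upstream start and had a relative signal of 11.1, 8.28 and 7.60 in replicates 1, 2 and 3 (8.98 ± 1.83, SD, n = 3), rank 44 of 4990 sites. Site 9, from 1970117 to 1970995 and 1758 bp away, had 3.79, 4.13 and 3.15 (3.69 ± 0.50, SD, n = 3). These neighbouring sites hold the run of GAAAG and the consensus match with 1 mismatch shown above.

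Other strong sites lay nearer the upstream start. Site 6, from 1951690 to 1952093 and 9982 bp downstream of that start, had 5.46, 4.11 and 4.62 times the median site (4.73 ± 0.68, SD, n = 3). Site 4, from 1947489 to 1948035 and 5807 bp downstream of it, had 3.66, 3.13 and 3.81 (3.53 ± 0.36, SD, n = 3). Every replicate placed sites 4, 6, 9 and 10 above 3 times its median site. Site 5, 936 bp beyond site 4, gave 1.53, 1.59 and 1.56 and so the smallest spread of any Hr4 site with 3 values above the median site (1.56 ± 0.03, SD, n = 3).

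Site 11 of Hr4, from 1990035 to 1990317, is the site with the full consensus, 2108 bp upstream of the start of Hr4-RE and -RF. Its relative signal was 2.32, 1.93 and 1.45 (1.90 ± 0.43, SD, n = 3), the highest of the 6 sites with GTGAAAG. Sites 1 and 8, which hold GTGAAAG without a consensus match of at most 1 mismatch, averaged 0.78 ± 0.10 and 0.65 ± 0.12 (SD, n = 3), and site 1 lay 116 bp upstream of CG3587. Site 14, in an intron of its neighbour east but 63 bp upstream of one of the starts of that gene, had 0.988 and 1.03 in replicates 1 and 2 and no peak in replicate 3. No reproducible site lay within 1000 bp of an Hr4 start. At the upstream start the strongest relaxed peak had relative signals of 0.353 and 0.559 in replicates 1 and 2 and none in replicate 3, and at the downstream start replicate 2 alone had a peak, with 0.107.

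Hr39, on chromosome 2L from 21237250 to 21259675 on the plus strand (FBgn0261239), had 1 site, the fewest of the 5 genes. It lay from 21250456 to 21251132 in an intron, 13441 bp downstream of the only start position, and the nearest protein-coding gene by TSS was l(2)k14505, 10477 bp away. The relative signal was 1.17 and 0.881 in replicates 1 and 2, and replicate 3 had no peak (1.03 ± 0.20, SD, n = 2), so the site lay on both sides of the median site. It ranked 2947 of 4990 and was supported by replicates 1 and 2. The start of Hr39 had relaxed peaks in every replicate, with relative signals of 0.320, 0.497 and 0.280 and the pooled summit 166 bp downstream of the TSS, which did not reach the reproducible list. Hr39 thus had neither a strong site nor a reproducible promoter site.

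Hr38, on chromosome 2L from 20683462 to 20714588 on the minus strand (FBgn0014859), had 4 sites, and its strongest was the strongest of all 34. That site, from 20715927 to 20716653, lay between genes, 1626 bp upstream of the only start position. Its relative signal was 13.1, 14.2 and 10.8 in replicates 1, 2 and 3 (12.7 ± 1.73, SD, n = 3), and it ranked 14 of 4990 by the pooled signal and 16, 14 and 16 in replicates 1, 2 and 3. Site 2, from 20714590 to 20714781 and 103 bp upstream of the start, had 1.53, 1.32 and 1.44 (1.43 ± 0.11, SD, n = 3). The site at the promoter itself was therefore far below the upstream one in every replicate, with the summits 1523 bp apart. Sites 3 and 4, in an intron 13563 and 17589 bp downstream, averaged 1.30 ± 0.34 and 0.83 ± 0.08 (SD, n = 3). All 4 Hr38 sites were supported by all 3 replicates.

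**Figure D2:**
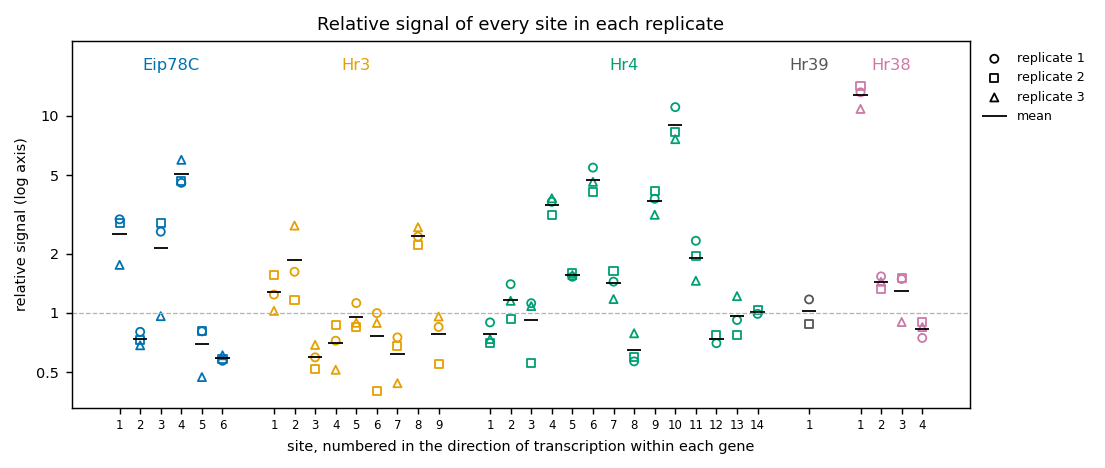
Relative signal on a log axis (no unit, 1 is the median site) of each of the 34 sites in replicates 1, 2 and 3 (open symbols) with the mean (line), by gene and site number. The strongest sites of Hr38 and Hr4 stand above 7 times the median site in every replicate, and 3 sites, including the only one of Hr39, lack a symbol for replicate 3.

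The strongest sites of the 5 genes fell in the order Hr38, Hr4, Eip78C, Hr3 and Hr39, from highest to lowest mean relative signal. Hr38 exceeded Hr4 by 2.08, 5.94 and 3.22 times the median site in replicates 1, 2 and 3. Hr4 exceeded Eip78C by 6.49, 3.59 and 1.63. Eip78C exceeded Hr3 by 2.13, 2.48 and 3.26, and Hr3 exceeded Hr39 by 1.27 and 1.32 in the replicates with a peak at Hr39. Each neighbour in the order thus differed in the same direction in every replicate that could be compared, and each mean difference with 3 values was larger than the larger SD of its pair. This order holds for windows with the 10 kb flanks. In the gene bodies alone, a choice made after seeing the data, Hr38 lost its upstream sites and its strongest was site 3 at 1.30 ± 0.34 (SD, n = 3), which placed it below Hr4, Eip78C and Hr3 and above Hr39. The means of Hr38 and Hr39 (1.03 ± 0.20, SD, n = 2) differed here by less than the SD of Hr38. Replicates 1 and 2 had Hr38 higher, at 1.49 and 1.51 against 1.17 and 0.881, and replicate 3 had no peak at Hr39. The order by number of sites was another one, with Hr38 below Hr4, Hr3 and Eip78C in number and above them in strength.

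Taken as a set the 34 sites lay near the median site, with a median relative signal of 1.09, against 0.983 over all 4990 sites. A relative signal over 2 was found at 9 of the 34 (26.5%), against 18.2% of all sites. These 9 were 4 of Hr4, 3 of Eip78C, 1 of Hr3 and 1 of Hr38. The site nearest above this threshold was Eip78C site 3 at 2.14 and the nearest below it Hr4 site 11 at 1.90. Support by all 3 replicates was found at 23 of the 34 (67.6%), against 56.9% of all sites. Another 8 were supported by 2 replicates and 3 by 1 replicate. At 3 of the 34 sites replicate 3 had no peak at all, as at 589 of all 4990 sites, and these were Hr39 site 1 and Hr4 sites 12 and 14. The 9 sites over 2 were all supported by 3 replicates, as were 97.2% of all 909 sites over 2.

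Most of the 34 sites lay away from the starts of the 5 genes. Summits within 1000 bp of a TSS of the gene itself were found at 3 of the 5 genes, Eip78C, Hr3 and Hr38, against 18.7% of all protein-coding genes and 32.4% of the 904 long ones. By start position this was 3 of 10, against 18.8% of the 19607 annotated start positions of protein-coding genes. Counting the TSSs of any protein-coding gene, 8 of the 34 sites (23.5%) lay within 1000 bp of one, against 46.2% of all sites, and 5 of these 8 belonged to neighbours alone (Hdc, CG34221, CG3587, PIG-K and east). With respect to their own gene, introns held 22 of the 34 sites, sequence upstream 6 and downstream 4, the 5′ UTR 1, the 3′ UTR 1 and coding exons 0, and 17 were over 10 kb from every start of that gene. Counted over any protein-coding gene, so that all sites can be set beside them, 25 of the 34 (73.5%) lay in an intron and in no exon, against 53.3% of all sites, and 10 (29.4%) lay over 10 kb from every start, against 12.2%. Of the 9 sites over 2, 6 (66.7%) lay in an intron, against 51.5% of the 909 sites over 2 in the whole list. Over 5 kb from every protein-coding start lay 5 of the 9 (55.6%), against 18.5% of the 909. Only Eip78C site 3 of the 9 (11.1%) lay within 1000 bp of a protein-coding start, against 55.6% of the 909. The 5 genes are 22426 to 66017 bp long, against a median of 2166 bp over all protein-coding genes, and the part of gene length in these shares was not tested. The nearest start was one of the gene itself at 19 of the 34 sites. At the 3 Hr3 sites among them that start is shared with CG46321.

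**Figure D3:**
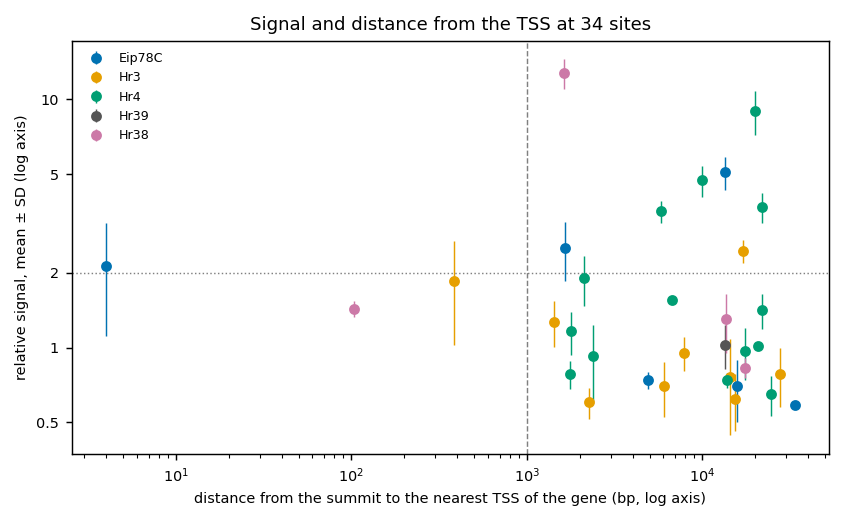
Mean relative signal ± SD over the replicates with a peak (n = 2 or 3, log axis, no unit) against the distance in bp from the summit to the nearest TSS of the gene (log axis), with 1 point for each of the 34 sites, coloured by gene. The dashed line is at 1000 bp and the dotted line at 2 times the median site; of the 9 points above the dotted line, 8 are to the right of 1000 bp.

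Motifs were searched on both strands within 100 bp of the summits, and matches describe the letters only. GTGAAAG was found at 6 of the 34 sites (17.6%), against 8.5% of all sites. Within 50 bp it was found at 2 of the 34 (5.88%), against 6.13% of all sites, so the higher share was not seen near the summit. At the 25 sites not over 2, the largest shift of a replicate summit from the summit of the site had a median of 80 bp. These 25 include all 6 sites with GTGAAAG, so a window of 50 bp can be finer than the placing of the summit. The 6 sites were Eip78C site 2, Hr3 site 4 and Hr4 sites 1, 8, 11 and 14. Their mean relative signals ran from 0.65 to 1.90, and none of the 9 sites over 2 held GTGAAAG, against 10.2% of the 909 sites over 2 in the whole list. GAAAG, which is part of GTGAAAG, was found at 22 of the 34 (64.7%), against 55.4% of all sites. The consensus of 11 positions was matched in full at 1 site (2.94%), Hr4 site 11, against 3.69% of all sites. With at most 1 mismatch it was matched at 6 sites (17.6%), against 22.1% of all sites. Only Hr4 site 9 among these 6 had a relative signal over 2. Such a match was thus held by 1 of the 9 sites over 2 (11.1%), against 31.2% of the 909.

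GAGAG was found at 10 of the 34 sites (29.4%), against 32% of all sites, and AGGTCA, the half-site bound by many nuclear receptors, at 2 (5.88%), Hr3 site 1 and Hr4 site 7, against 4.13% of all sites. Repeats of a motif were also counted at single sites. The strongest Hr4 site was the only one of the 34 with 5 GAAAG, a number reached by 0.581% of all sites (29 of 4990). At the Hr38 promoter the site held 4 GAGAG, the only one of the 34 to do so. That number was reached by 5.35% of all sites (267 of 4990), so it was not rare. The strongest Hr38 site held 0 GAAAG and the strongest Hr3 site had no match to any of the motifs searched, apart from consensus matches with 2 mismatches. The median GC content of the 201 bp around the summits was 38.6% at the 34 sites, against 39.3% at all sites.

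Below the reproducible list, the pooled relaxed peaks gave 70 weaker regions in the 5 windows, of which 24 (34.3%) had a peak in all 3 replicates, against 33.3% of the 18228 weaker regions of the genome. Hr3 had 21 of them, Hr4 18, Eip78C 12, Hr39 10 and Hr38 9. For Hr39 the strongest lay in an intron 6971 bp downstream of its start, with relative signals of 0.600 and 0.747 in replicates 1 and 2 and no peak in replicate 3. Only 1 of the 10 weaker regions of Hr39, the one at its start, had a peak in every replicate. The windows were not sharply cut, since the nearest reproducible sites outside them began 16824 bp upstream of Hr39, 19447 bp downstream of Eip78C and 20742 bp upstream of Hr38, with mean relative signals of 0.78, 0.95 and 3.35, and the outermost site inside lay 7505 bp downstream of Eip78C (0.59).

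Set beside the other 16 genes of the nuclear receptor family, which had a median of 1 site, 4 of the 5 genes had more sites than most and Hr39 had 1. Several of the 16 are short and so have smaller windows, such as usp at 3514 bp. Per 10 kb of window the median of the 16 was 0.427 sites. By this measure Hr38, at 0.782, was below usp (0.851), Hr96 (0.829) and Hnf4 (0.944), and also below Eip75B, ftz-f1 and EcR. At least 3 sites were found at Hr4, Hr3, Eip78C and Hr38 and at 4 of the other 16, namely Eip75B with 28, ftz-f1 with 12, EcR with 11 and Hnf4 with 4. Hr38, at 12.7 ± 1.73 (SD, n = 3), had the strongest site of the family by mean relative signal, ahead of ftz-f1 at 11.6 ± 1.60 and Eip75B at 11.3 ± 2.21 (SD, n = 3). Relative to ftz-f1, Hr38 differed by -0.11, 2.75 and 0.77 times the median site in replicates 1, 2 and 3, so the direction was not the same in every replicate. Relative to Eip75B, Hr38 was higher in every replicate, by 0.59, 1.71 and 2.12. The mean difference of 1.47 was smaller than the larger SD of the pair. It was larger than the SD of the differences within replicates, which was 0.79 (n = 3). Hr4 at 8.98 ± 1.83 was above EcR, the ecdysone receptor gene, at 6.23 ± 1.51 (SD, n = 3). The differences were 4.63, 0.65 and 2.97 in the 3 replicates. Their mean of 2.75 was larger than the larger SD of the pair and than the SD of the differences, 2.00. Of the other 16 receptors, 8 had a site within 1000 bp of a TSS, namely EcR, Eip75B, ftz-f1, Hr78, Hr96, Hnf4, ERR and eg. The gene usp had 2 sites and none at a start, and Hr83, svp and kni had none in their windows. The Hr39 site, at 1.03 ± 0.20 (SD, n = 2), was near in strength to the only sites of Hr78 (0.93 ± 0.27, SD, n = 3) and ERR (0.92 ± 0.42, SD, n = 2), both of which lay at a start. The other 14 genes of the ecdysone regulator list all had a site and 12 had at least 3, with a median of 6 sites. By mean relative signal of the strongest site, Blimp-1 (24.5 ± 6.16, SD, n = 3) and Eip74EF (13.8 ± 1.85, SD, n = 3) were above Hr38. The rest of the 14 were below it. In replicate 2 Eip74EF was lower than Hr38, at 12.9 against 14.2.

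**Figure D4:**
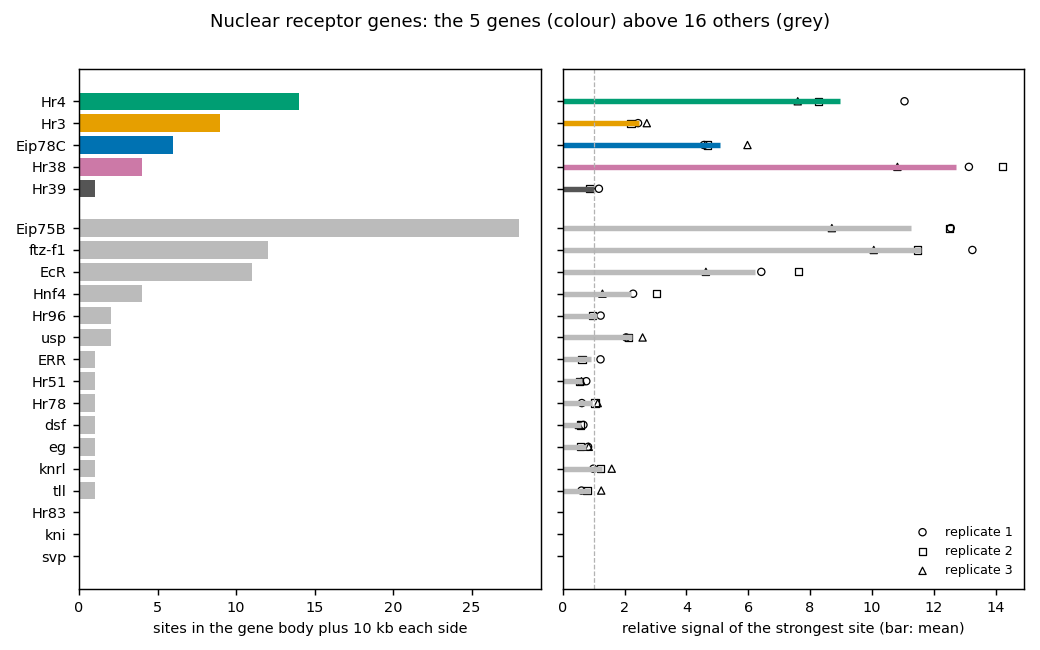
Number of reproducible sites in the gene body plus 10 kb on each side (left) and relative signal of the strongest site (right, bar for the mean, symbols for the 3 replicates, no unit, 1 is the median site), for the 5 genes in colour above the other 16 nuclear receptor genes in grey. Hr38 has few sites but the longest bar on the right, and Hr39 lies among the receptors with 1 site.

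Genes outside the receptor and ecdysone lists with the same number of sites and the nearest pooled signal of the strongest site were looked up for each gene, as a description of likeness in these 2 measures. For Hr4, with a pooled signal of 3438, only 3 genes had 14 sites, heca at 2618, psq at 2446 and Svil at 1354, all weaker. For Hr3 (938) the nearest of 20 genes with 9 sites were hiw at 924, sima at 979 and bun at 897. For Eip78C (1873) the nearest of 106 genes with 6 sites were vimar at 1887, Rbm13 at 1941 and pdgy at 1944. For Hr38 (5025) the nearest of 573 genes with 4 sites were CCKLR-17D3 at 4909, CG6330 at 4492 and dpy at 4229. For Hr39 (322) there were 3754 genes with 1 site, and the nearest were CG43101 at 323, Vha14-2 at 322 and CG15237 at 322.

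The replicates ranked the 34 sites alike, as a description across sites that share their libraries. For replicates 1 and 2, Spearman's rho of relative signal over 34 sites was 0.886, against 0.828 over all sites with a peak in both. For replicates 1 and 3 it was 0.914 over 31 sites, against 0.740, and for replicates 2 and 3 it was 0.803 over 31 sites, against 0.622.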

How the data were processed

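Binding of Blimp-1-GFP was measured by ChIP-seq in 3 biological replicates of 1 group, as the labels give it. The authors deposited peak lists on dm6 and dm3, per the file headers and the text deposited with the libraries: relaxed lists of 30000 peaks, 1 per replicate and 1 pooled, and an IDR list. The aligner, peak caller and signal scaling were not given in the sources used here. For each list, column 7 was read as the deposited signal per peak, and column 9 as −log10 of a q-value, which in the authors' lists equals its maximum, 3.96, in 82.2% of IDR peaks and was not used for ranking. The lowest deposited signal of an IDR peak was 205. The dm3 lists were not used.

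The 5573 IDR peaks on dm6 were merged where they overlapped, with the strongest summit kept. Genes and TSSs came from the Ensembl release 115 annotation (FlyBase 6.54), and sequence from the RefSeq copy of genome release 6, with coordinates counted from 1. Scripts ran in Python 3.11.15 with numpy 2.4.6 and pandas 2.3.3 and were tested on simulated data. The minimum overlap between lists was 1 bp. Weaker regions are merged pooled relaxed peaks that overlap no reproducible site.

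The members and lists were chosen with earlier results of these data known. Named are, for each of the 5 genes, its strongest site, every site over 2 times the median site, within 1000 bp of a TSS or with a GTGAAAG or near-consensus match, the nearest gene of such a site, and each nuclear receptor gene with a promoter site. Other sites and genes were named after their values were seen. The family list has 21 genes and the ecdysone list 19. Nothing here compares conditions, so there are no p-values, and the SDs measure only the spread between these 3 samples.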

Additional observations from a re-analysis of the deposited data

How the results depend on the processing

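Of 89 alternative values, 76 stayed within the spread between replicates or within 1.5 times the count, and 13 did not. Changes of direction were not scored. For the strongest site of each gene, leaving out 1 replicate cannot move the mean by as much as the SD. Those values could therefore only be counted as unchanged. The 34 sites fell to 17 when only sites at or above the median pooled signal were kept. That median was taken over all 4990 sites, so the cut splits the whole list evenly by its definition. The share of the 34 that was kept was the same as over all sites. GTGAAAG within 50 bp of the summit was found at 2 of the 34 sites (5.88%, against 6.13% of all sites), where 6 held it within 100 bp and the share was above that of all sites, and the consensus with at most 1 mismatch at 3 (15.5% of all sites), against 6. Among the other 16 nuclear receptors 6 had a site supported by all 3 replicates, against 13 with any site, an alternative added after seeing the data. Hr39 kept 0 sites under either stricter rule and Hr3 kept 5 with support by all 3 replicates. Leaving out each replicate in turn gave 23 to 28 sites supported by all that remained, against 23 with all 3. With fewer replicates required, this count could not fall. The median relative signal ran from 1.04 to 1.15 with a replicate left out. The order of the 5 strongest sites kept all 5 places in each alternative that changed how signal was computed. With the gene body alone, Hr38 fell to 2 sites, and in the order, run for that setting after seeing the data, 1 of 5 places was kept because the strongest Hr38 site lies upstream of the gene. Samples could not be paired between groups because there is 1 group, and differences between sites were taken within each replicate. The depth of the libraries is unknown, so weak and absent peaks cannot be told apart.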
